A study of Mus musculus with 6 samples.

Results

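The genes described here are 46 genes of G2 phase and mitosis, chosen by name as rows of the deposited expression table: the mitotic cyclin-dependent kinase Cdk1 with its cyclins, the mitotic kinases, the spindle checkpoint, kinetochore and centromere proteins, mitotic kinesins, spindle proteins, condensins and cytokinesis factors. They were chosen with earlier results of these data known, so their shares set beside those of all genes are descriptions. All 46 were among the 24341 genes of the table. Each of the 46 passed the filter on low values (a mean over libraries of 1 FPKM or more, where FPKM is fragments per kilobase of transcript scaled to the library's mapped fragments), which 12742 genes passed. Whole lungs of C57BL/6 mouse embryos at E12.5 were sequenced as RNA, with 3 libraries from Shh-Cre;Sin3a flox/+ controls and 3 from Shh-Cre;Sin3a flox/flox mutants. Both genotypes thus carried the Cre recombinase and a floxed Sin3a allele. Shh-Cre acts in the lung epithelium, whereas the libraries held RNA from every cell type of the lung. The labels do not say whether a library was 1 embryo or a pool, so p-values measure the spread between these libraries.

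In dividing cells transcripts of these genes climb in late S phase and G2, and they are low in resting cells. CDK1 bound to cyclin B drives entry into mitosis, the spindle checkpoint holds the anaphase-promoting complex (APC/C) back until chromosomes are attached, and the APC/C then marks cyclin B for destruction. Many of the promoters carry a cell cycle genes homology region (CHR) and CCAAT boxes. In resting cells the DREAM complex represses these genes through the CHR, while in G2 B-MYB and FOXM1 activate them with the MuvB core, and CCAAT boxes are bound by NF-Y. SIN3A is the scaffold of a histone deacetylase corepressor complex.

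The CHR and CCAAT letters were looked for in RefSeq promoter windows of GRCm38.p6, which run from 250 bases before to 50 bases after an annotated start. Of the 46 genes, 39 had an entry, with 42 windows. The CHR was searched as TTTGAA and the CCAAT box as CCAAT, each on both strands. Matches of the 2 motifs can share no more than an end base. The windows below are the 150 bases before the start. They are shown for Cdk1 and Kif15, which passed the test between genotypes, and for Ube2c, Top2a and Mki67. Cdc20, whose means were almost equal, is shown too. All of these windows hold TTTGAA before the start, which is not so for every gene. In Ttk, Kif4, Plk1 and Aurka, among others, the only TTTGAA lay after the start, at 7, 19, 30 and 32 bases. Capitals mark TTTGAA and CCAAT, or TTCAAA and ATTGG where the match is on the other strand.
Cdk1, chr10:69352913-69353062, minus strand: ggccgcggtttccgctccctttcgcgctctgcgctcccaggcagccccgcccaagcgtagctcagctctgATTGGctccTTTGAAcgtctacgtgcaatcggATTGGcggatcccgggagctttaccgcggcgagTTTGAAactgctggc
Kif15, chr9:122950931-122951080, plus strand: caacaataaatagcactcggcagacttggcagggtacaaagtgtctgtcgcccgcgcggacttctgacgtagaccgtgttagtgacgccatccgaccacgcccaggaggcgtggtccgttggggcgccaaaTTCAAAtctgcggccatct
Ube2c, chr2:164769779-164769928, plus strand: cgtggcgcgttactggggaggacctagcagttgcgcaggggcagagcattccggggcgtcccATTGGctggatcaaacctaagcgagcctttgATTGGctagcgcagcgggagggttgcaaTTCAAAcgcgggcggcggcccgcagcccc
Top2a, chr11:99024190-99024339, minus strand: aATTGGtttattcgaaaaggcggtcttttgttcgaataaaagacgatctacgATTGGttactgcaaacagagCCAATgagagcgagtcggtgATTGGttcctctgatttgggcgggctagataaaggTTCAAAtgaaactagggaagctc
Mki67, chr7:135716380-135716529, minus strand: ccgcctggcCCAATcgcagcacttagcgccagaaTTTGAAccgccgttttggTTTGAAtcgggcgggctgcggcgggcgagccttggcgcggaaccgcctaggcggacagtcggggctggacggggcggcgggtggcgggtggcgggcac
Cdc20, chr4:118437344-118437493, minus strand: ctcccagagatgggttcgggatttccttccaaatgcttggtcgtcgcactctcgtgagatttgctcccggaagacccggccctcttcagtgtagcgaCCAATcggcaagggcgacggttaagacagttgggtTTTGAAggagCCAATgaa

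Of the 42 windows, 34 held TTTGAA (81.0%), against 17.9% of all 32851 promoter windows in the RefSeq table. CCAAT was also in 34 of them (81.0%, against 37.4% of all windows), and both motifs were in 30 (71.4%, against 6.95%). Counted from 100 bases before the start onward, TTTGAA was in 73.8% of the windows of these genes and in 8.01% of all windows. Cdk1 held a TTTGAA at 71 and one at 15 bases before the start, and Mki67 held its pair farther out, at 116 and 98 bases. Cdc20, with a TTTGAA at 18 bases, had the motif as close to its start as Kif15 at 19 bases, and Kif15 held no CCAAT letters in its window. In Birc5, Bub1, Ccnb1, Cenpe, Cks2, Mad2l1, Nuf2 and Nusap1 the letters TTTGAA were not in the window. Other G2 and mitosis genes held TTTGAA in 42.1% of 76 windows and CCAAT in 59.2%, and DNA replication genes in 11.4% and 56.8% of 44. Lung mesenchyme markers held each motif in 5 of 10 windows. A match is a run of letters and not evidence of binding, and these shares are a description with no test.

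**Figure D1:**
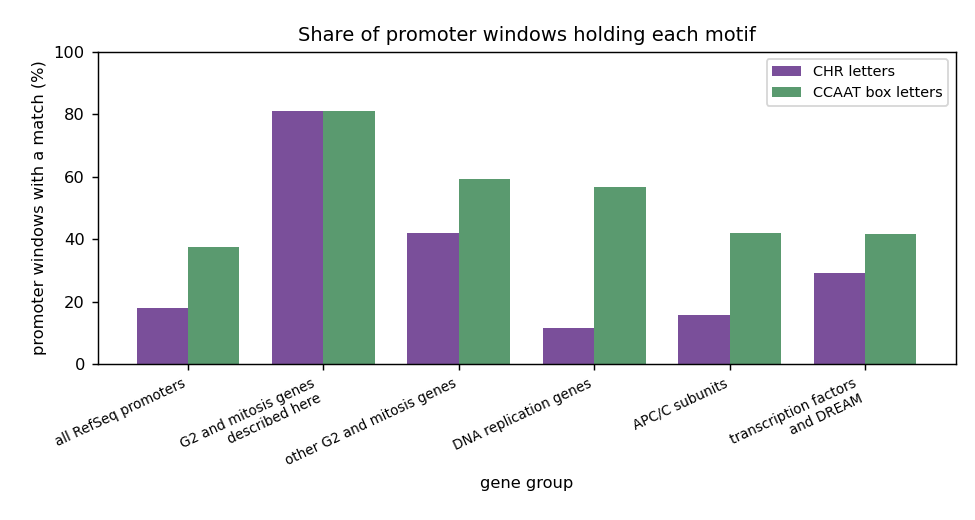
Share of RefSeq promoter windows (percent, vertical axis) that hold the CHR letters or the CCAAT letters on either strand, for all windows and for 5 gene groups. The genes described here stand at 81.0% for both motifs, above all windows (17.9% and 37.4%).

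Transcripts of the G2 and mitosis genes were lower in mutant lungs by small amounts. The log2 change on the log2(FPKM + 1) scale, mutant minus control, was below 0 for all 46 genes (for 40 with globins and small RNAs omitted and for 43 after quantile normalization), where 51.3% of all tested genes were below 0. The median of the 46 was -0.288, against -0.008 for all tested genes, and single genes ran from -0.62 for Bub1 to -0.04 for Ccnb2. On the FPKM scale the mutant means were 2.26% to 34.2% lower, with a median of 18.8%. All 3 mutant libraries lay below all 3 control libraries for 28 genes (60.9%), while 14.6% of all tested genes showed that order. In whole lung, fewer cells in G2 and mitosis and less RNA of these genes per cell cannot be told apart.

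By limma with Benjamini-Hochberg adjustment over all 12742 genes, 2 of the 46 fell, Cdk1 and Kif15, and 0 rose. That is 4.35% of the 46, beside 1.63% of all tested genes called lower and 1.71% called higher. Over all genes, 208 were called lower and 218 higher (48.8% lower). When globins and small RNAs were omitted these were 179 and 845 (17.5% lower), so the split moved mainly through more higher calls, and 0 of the 46 were called. An unadjusted p under 0.05 with a lower value was found for 25 of the 46 (54.3%, beside 11.7% of all tested genes). Neither call held without control library 1, 2 or 3 or without mutant library 2, with adjusted p of up to 0.14 for Cdk1 and 0.17 for Kif15. Without mutant library 1, 12 of the 46 (26.1%) were called lower, and the calls over all tested genes rose as well, to 454 lower (3.56%) and 372 higher.

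**Figure D2:**
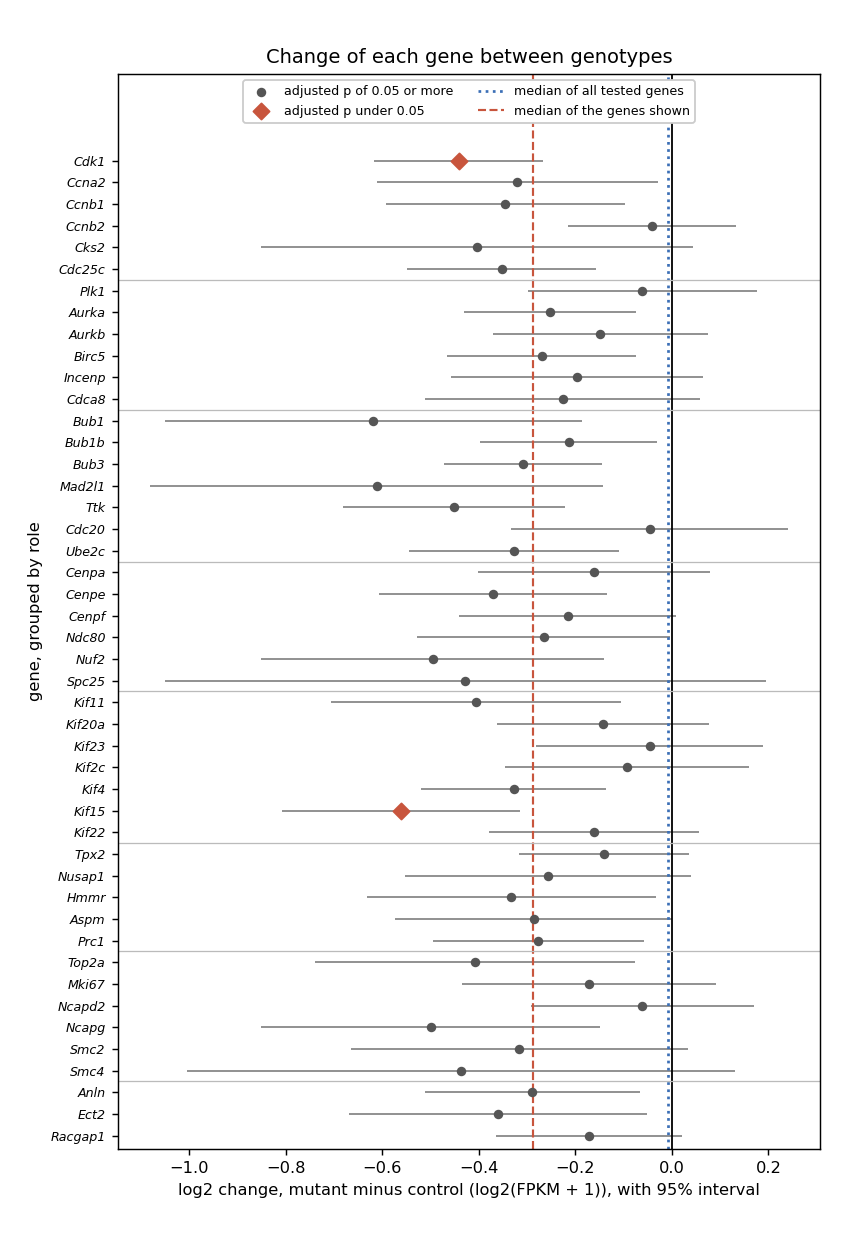
Log2 change of each of the 46 genes (horizontal axis, mutant minus control on log2(FPKM + 1)) with its 95% interval, n = 3 libraries per group, in blocks by role. All 46 points lie left of 0, around a median of -0.288, and the 2 genes with an adjusted p under 0.05 (limma), Cdk1 and Kif15, are drawn as diamonds.

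Among CDK1, the cyclins and their regulators, 1 of 6 fell and the median log2 change was -0.35. Cdk1, the kinase that drives mitotic entry, lies on chromosome 10 from 69336635 to 69352912. It measured 143, 142 and 147 FPKM in control libraries 1 to 3 and 109.9, 107 and 101 FPKM in mutant libraries 1 to 3. The groups were well apart, each with a narrow range. The log2 change was -0.44 (SE 0.08, adjusted p = 0.031), a mean 26.6% lower.

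None of the cyclin genes passed the test. Ccnb1, which encodes the main cyclin partner of CDK1 in mitosis, measured 286, 313 and 334.5 FPKM in controls and 276.5, 228 and 231 FPKM in mutants. Every mutant library lay below every control library, but mutant library 1 came close, and the log2 change of -0.345 (SE 0.11) had an adjusted p of 0.12. Ccna2, the S phase and G2 cyclin gene, measured 153, 173 and 173.5 FPKM in controls and 157, 129.5 and 115 FPKM in mutants, so mutant library 1 lay above control library 1 (log2 change -0.32, SE 0.12, adjusted p = 0.18). The second B-type cyclin gene, Ccnb2, was nearly level, with a control mean of 137 ± 4.59 FPKM and a mutant mean of 133 ± 4.50 FPKM (SD, n = 3). Cdc25c, a phosphatase gene whose product activates CDK1, measured 40.9, 39.3 and 37.9 FPKM in controls and 32.5, 29.7 and 29.6 FPKM in mutants, with no overlap (log2 change -0.35, SE 0.08, adjusted p = 0.065). Cks2, a small CDK-binding protein gene, had the widest mutant spread of the 6, at 406.7, 250.2 and 249.7 FPKM against 390.4 ± 35.7 FPKM in controls.

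Mitotic kinases and chromosomal passenger genes had 0 of 6 called and a median log2 change of -0.21. Plk1, the polo-like kinase gene of centrosome maturation and spindle assembly, measured 59.0, 57.5 and 60.2 FPKM in controls and 51.2, 54.4 and 64.35 FPKM in mutants. Its highest value was in mutant library 3 and its lowest in mutant library 1 (log2 change -0.06, SE 0.10, adjusted p = 0.76). Aurka, the centrosomal Aurora kinase gene, measured 102, 107 and 102 FPKM in controls and 83.2, 86.7 and 90.9 FPKM in mutants, without overlap (log2 change -0.25, SE 0.08, adjusted p = 0.11). Aurkb, the kinase of the chromosomal passenger complex, measured 59.65, 63.3 and 64.7 FPKM in controls and 53.7, 52.9 and 62.9 FPKM in mutants. Mutant library 3 lay within the control range (log2 change -0.15, SE 0.095, adjusted p = 0.39). Birc5, which encodes the passenger subunit survivin, measured 305, 306 and 269.8 FPKM in controls and 232, 251 and 245 FPKM in mutants, again without overlap (log2 change -0.27, SE 0.08, adjusted p = 0.12). The other passenger subunit genes, Incenp and Cdca8 (borealin), had means 13.2% and 13.9% lower with overlapping groups.

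Spindle checkpoint and APC/C genes had 0 of 7 called. All mutant libraries lay below all controls in 6 of 7, an order found in 14.6% of all tested genes. Bub1, a checkpoint kinase gene, had the lowest log2 change of all 46 genes. It measured 46.2, 45.7 and 52.8 FPKM in controls and 40.6, 31.2 and 23.4 FPKM in mutants, and this wide mutant spread went with an adjusted p of 0.11 (log2 change -0.62, SE 0.185). Mad2l1, whose product MAD2 binds and holds CDC20, ran alike, at 92.0, 103 and 104 FPKM in controls and 86.3, 67.0 and 46.95 FPKM in mutants (log2 change -0.61, adjusted p = 0.13). Ttk, the kinase gene also called Mps1, had tight controls of 39.0, 37.7 and 38.5 FPKM and mutants of 30.6, 28.3 and 24.8 FPKM. The log2 change was -0.45 (SE 0.10), with an adjusted p of 0.055. Bub3, an adaptor of BUB1 and BUBR1, measured 249, 252 and 259.7 FPKM in controls and 207, 199.7 and 207 FPKM in mutants, a narrow and separate pair of ranges (log2 change -0.31, SE 0.07, adjusted p = 0.060).

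None of the genes that act on the APC/C itself passed the test. Ube2c, its ubiquitin-conjugating enzyme gene, measured 255, 289 and 297 FPKM in controls and 239, 209 and 221 FPKM in mutants, without overlap (log2 change -0.33, SE 0.09, adjusted p = 0.0996). Cdc20, the APC/C activator gene that the checkpoint restrains, measured 147.5, 146 and 145 FPKM in controls and 126.5, 131 and 172 FPKM in mutants. Mutant library 3 was the highest of the 6 libraries and the other mutant libraries the lowest, and the log2 change was -0.05 (SE 0.12, adjusted p = 0.86). Bub1b, which encodes BUBR1, had a mean 14.0% lower, from 82.1 ± 4.10 to 70.6 ± 1.91 FPKM.

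**Figure D3:**
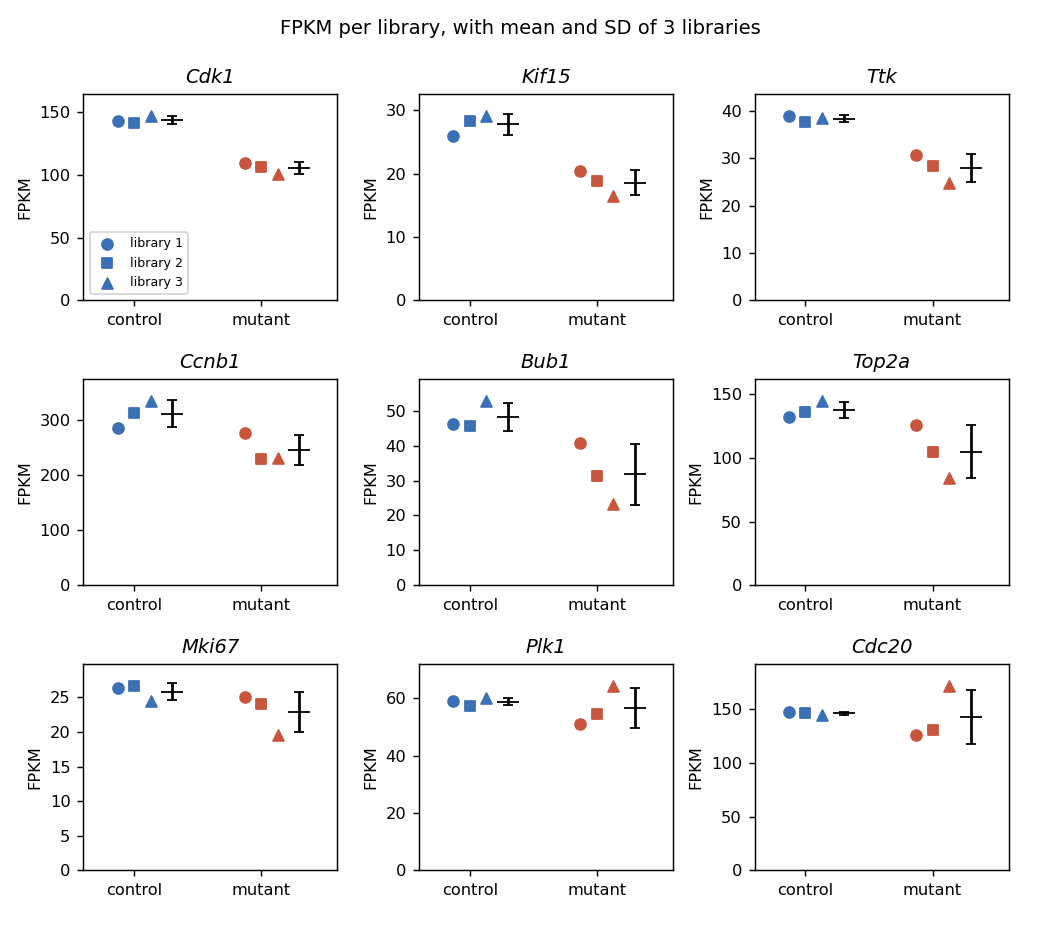
FPKM (vertical axis, starting at 0) of 9 genes in each control (blue) and mutant (red) library, with a bar at the mean and its SD, n = 3; circles, squares and triangles are libraries 1, 2 and 3 of a group. Cdk1, Kif15 and Ttk form separate narrow groups, Bub1 and Top2a have a wide mutant group with library 3 lowest, and in Plk1 and Cdc20 mutant library 3 is the highest.

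Kinetochore and centromere genes had 0 of 6 called and a median log2 change of -0.32. Cenpe, a kinetochore motor gene, measured 25.01, 25.85 and 25.05 FPKM in controls and 21.1, 20.05 and 17.1 FPKM in mutants, without overlap (log2 change -0.37, SE 0.10, adjusted p = 0.091). The NDC80 complex, which grips microtubules at the kinetochore, was represented by Ndc80, Nuf2 and Spc25, with log2 changes of -0.27, -0.50 and -0.43. Nuf2 and Ndc80 had separate groups, while Spc25 ran from 60.9 to 135 FPKM in mutants and overlapped controls of 110.6 to 143 FPKM. Cenpf had a mean 14.35% lower and separate groups. Cenpa, which encodes the centromeric histone H3 variant, was 10.3% lower with overlap.

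Kinesins held the other gene that fell. Kif15, a motor gene of spindle bipolarity, lies on chromosome 9 from 122951081 to 123018733. It measured 25.9, 28.4 and 29.15 FPKM in controls and 20.4, 18.9 and 16.5 FPKM in mutants, so every control library lay above every mutant library. The log2 change was -0.56 (SE 0.105, adjusted p = 0.038), a mean 33.2% lower. Kif11, the main plus-end motor that pushes spindle poles apart, was 24.6% lower on the mean (log2 change -0.41, adjusted p = 0.12). Kif4, a chromosome-bound motor gene on the X chromosome, measured 29.0, 28.05 and 30.7 FPKM in controls and 23.6, 22.7 and 22.95 FPKM in mutants, with the tightest mutant values of the 7 kinesins (log2 change -0.33, SE 0.08, adjusted p = 0.073). Kif20a, Kif23, Kif2c and Kif22, with roles in cytokinesis, kinetochore correction and chromosome movement, had means 2.94% to 10.4% lower, and their groups overlapped.

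Spindle microtubule genes had 0 of 5 called, with log2 changes from -0.33 to -0.14. Hmmr, Aspm, Prc1 and Tpx2, which encode spindle pole and midzone proteins, had separate groups, and their means were 20.9%, 19.4%, 17.7% and 9.497% lower. Nusap1 overlapped, since its mutant library 1 (50.1 FPKM) lay just above control library 1 (49.98 FPKM).

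Chromosome structure genes had 0 of 6 called and a median log2 change of -0.36. Top2a, the topoisomerase gene that untangles sister chromatids, measured 132.5, 136 and 145 FPKM in controls and 126, 105 and 84.4 FPKM in mutants, without overlap (log2 change -0.41, SE 0.14, adjusted p = 0.15). Mki67, which encodes the proliferation marker Ki-67, measured 26.3, 26.6 and 24.4 FPKM in controls and 25.02, 24.1 and 19.6 FPKM in mutants. Mutant library 1 lay inside the control range (log2 change -0.17, SE 0.11, adjusted p = 0.40), and the 95% interval ran from -0.435 to 0.09. Ncapg, a condensin I subunit gene, measured 46.3, 52.1 and 48.5 FPKM in controls and 42.2, 34.7 and 27.5 FPKM in mutants. Its groups did not overlap (log2 change -0.50, SE 0.15, adjusted p = 0.11). Its partner Ncapd2 was nearly level, at 50.4 ± 0.486 and 48.5 ± 5.565 FPKM. The shared condensin core genes Smc2 and Smc4 had means 19.0% and 23.3% lower, and Smc4 had a mutant range of 27.8 to 58.9 FPKM.

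Cytokinesis genes Anln, Ect2 and Racgap1, for anillin, a RHOA exchange factor and its centralspindlin partner, had 0 of 3 called, with separate groups in 3 of 3 (14.6% of all tested genes had that order). Their means were 18.6%, 22.0% and 11.45% lower, with adjusted p of 0.13, 0.16 and 0.26. Ccna2, Cdc20, Kif20a, Nusap1, Ncapg and Anln each share their deposited locus with at least 1 other tested gene, so their values are less certain.

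The mutant libraries did not share 1 pattern. Mutant library 3 was the lowest of the 6 libraries in 26 genes and the highest in 4, mutant library 1 the lowest in 13 and the highest in 1, and mutant library 2 the lowest in 7 and the highest in 0. No control library was the lowest for any of the 46. Relative to the control mean, the median log2 deviation of the 46 genes was -0.21, -0.27 and -0.38 in mutant libraries 1, 2 and 3. The SD of these deviations over genes was 0.34 in mutant library 3, against 0.13 and 0.14 in mutant libraries 1 and 2 and 0.059 to 0.065 in the control libraries. Mutant library 1 had the lowest relative depth of the 6 libraries (0.5, with control library 1 at 1.0), and control library 3 was close to it at 0.54. Mutant library 1 and control library 2 were the 2 libraries with the Y-linked Ddx3y above 1 FPKM. The part of depth or of Y-linked expression in these differences was not tested. Summed over the 46 genes, FPKM was 4214 to 4417 in controls and 3425 to 3829 in mutants. As a share of each library's total FPKM the groups overlapped, with controls at 0.578%, 0.598% and 0.6525% and mutants at 0.598%, 0.539% and 0.546% (libraries 1, 2 and 3). By that measure mutant library 1 lay above control library 1 and level with control library 2.

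**Figure D4:**
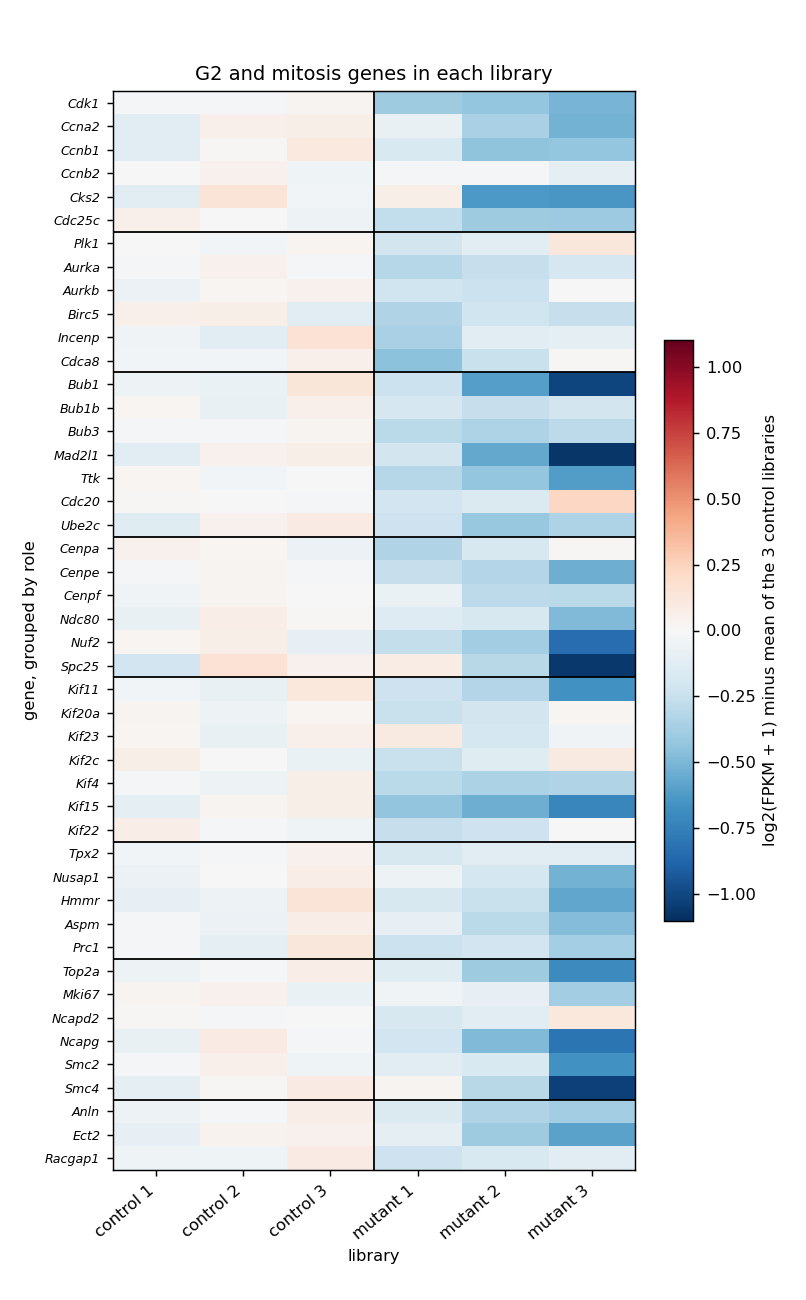
Log2(FPKM + 1) of each gene in each library minus the mean of the 3 control libraries (colour, blue lower and red higher), with genes in blocks by role. Mutant columns are mostly blue, and mutant library 3 holds both the darkest blue genes (Mad2l1, Spc25, Smc4, Bub1) and the reddest mutant value (Cdc20).

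The deviations in mutant library 3 moved with the base composition of the transcripts. Over the 46 genes, whose GENCODE transcripts had 39.7% to 56.0% GC, Pearson's r between GC content and deviation was 0.80 in mutant library 3, 0.49 in mutant library 2 and -0.27 in mutant library 1 (Spearman's rho 0.83, 0.50 and -0.26). Over all 12277 tested genes with a GC value, r was 0.43, 0.16 and -0.20 in the same order. Genes are not independent replicates and share these libraries, so the correlations are descriptions. The 23 genes with the lower GC content had a median log2 change of -0.37, and the other 23 genes had -0.17. After a correction of every library for GC content and transcript length, chosen after the data were seen, 45 of 46 changes stayed below 0, Ccnb2 being the exception at 0.03, and the median was -0.233. With that correction 15 of the 46 (32.6%) passed an adjusted p under 0.05 by limma, all lower, where 6.18% of all tested genes were called lower. Cdk1 then had a log2 change of -0.46 (adjusted p = 0.0037), Kif15 -0.49 (0.0096), Mad2l1 -0.52 (0.014) and Bub1 -0.48 (0.014). The other 11 were Kif4, Ncapg, Top2a, Nuf2, Cenpe, Ttk, Cdc25c, Kif11, Bub1b, Anln and Aurka.

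**Figure D5:**
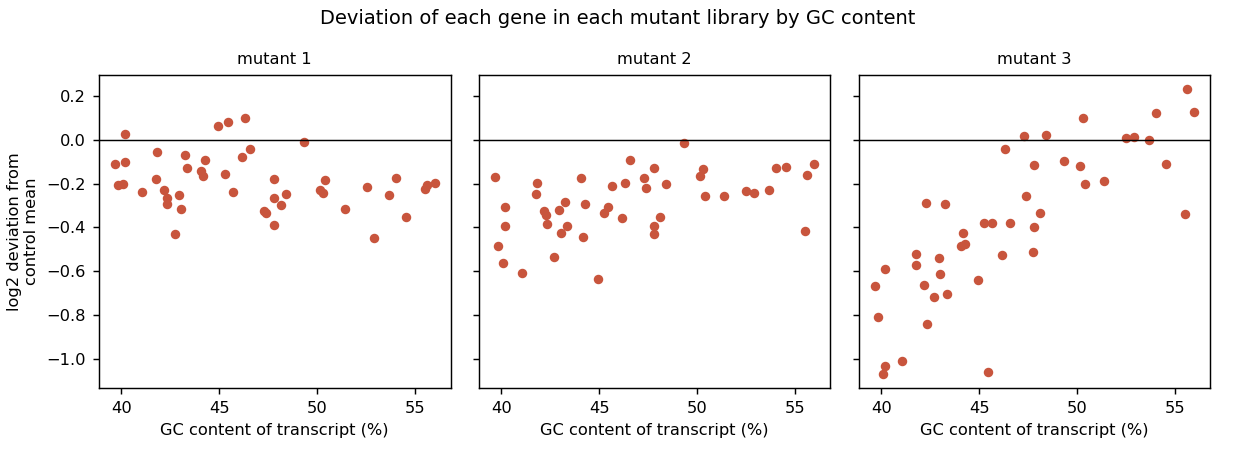
Log2 deviation of each of the 46 genes from the control mean (vertical axis) by GC content of its transcript (horizontal axis, percent), 1 panel per mutant library. In mutant library 3 the points climb from about the lowest values at low GC content to above 0 at high GC content (r = 0.80), while in mutant library 1 they slope slightly downward (r = -0.27).

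Other genes of G2 and mitosis had lower values too. Of 81 tested genes of a list that holds none of the 46, 75 had negative changes, 38 had all mutant libraries below all controls (46.9%, beside 14.6% of all tested genes), and the median log2 change was -0.249. By the test 1 of the 81 fell (1.23%, beside 1.63% of all tested genes). It was Melk, a mitotic kinase gene, which went from 49.4 ± 1.52 to 33.4 ± 2.71 FPKM (log2 change -0.56, SE 0.09, adjusted p = 0.027). That call ended without any 1 control library or mutant library 2 (adjusted p up to 0.13). The centromere genes Cenpn and Cenpw came next, with log2 changes of -0.42 and -0.55 and adjusted p of 0.051 and 0.053. A list of 17 APC/C genes, subunits and the inhibitor gene Fbxo5 among them, had a median log2 change of -0.10 and 13 negative changes. By the test 1 of the 17 was called lower, beside 1.63% of all tested genes. That gene was Anapc15, from 67.5 ± 3.20 to 51.0 ± 2.54 FPKM, with an adjusted p just under the threshold of 0.05, and the call passed in 3 of 19 alternatives. Of the 6 fits that leave out 1 library, it held only without mutant library 3. Its neighbours by p-value were Cdc26, an APC/C subunit gene (log2 change -0.35, adjusted p = 0.062), and Fbxo5, the gene of the APC/C inhibitor EMI1 (-0.25, adjusted p = 0.12). Of 10 cohesin genes, which hold sister chromatids together, 8 had negative changes, with a median log2 change of -0.15. All mutant libraries lay below all controls in 2 of the 10 (14.6% of all tested genes had that order). By the test 0 of the 10 were called, beside 1.63% of all tested genes called lower and 1.71% higher. An unadjusted p under 0.05 was found for 0 of the 10, where 11.7% of all tested genes had one with a lower value. Pds5b, Rad21 and Mau2 had log2 changes of -0.34, -0.24 and 0.18.

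Of 20 genes for regulators of these promoters (E2F, RB family, MuvB, B-MYB, FOXM1 and NF-Y proteins), 16 had negative changes, with a median log2 change of -0.18, and 5 had all mutant libraries below all controls (14.6% of all tested genes did). By the test 1 of the 20 fell (1.63% of all tested genes were called lower), Tfdp1, which encodes the DP1 partner of E2F factors. It measured 102, 101 and 100.4 FPKM in controls and 79.9, 80.4 and 77.4 FPKM in mutants. The log2 change was -0.35 (SE 0.07, adjusted p = 0.047), and this call ended in 13 of 19 alternatives. With 1 library left out, it held only without mutant library 1 (adjusted p up to 0.19 in the others). Foxm1 measured 15.9 ± 0.886 and 15.6 ± 1.81 FPKM (adjusted p = 0.90), Mybl2, the B-MYB gene, 11.7 ± 1.29 and 9.67 ± 1.53 FPKM (0.31), and E2f4, a DREAM subunit gene, 42.9 ± 2.11 and 37.5 ± 5.98 FPKM (0.38). Nfyc and Rbbp4 had log2 changes of -0.24 and -0.23 (adjusted p = 0.12 and 0.14).

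DNA replication genes, which act earlier in the cycle, ran in the same direction, with a median log2 change of -0.31. Of their 48 changes, 47 were below 0, where 51.3% of all tested genes were below 0. By the test 6 of the 48 were called lower, beside 1.63% of all tested genes. That was a larger share than the 2 of 46 (4.35%) among the genes described here. Pcna, the sliding clamp gene, had a log2 change of -0.53 (adjusted p = 0.020), a call that ended without any 1 control library or mutant library 2 (adjusted p up to 0.12). Cdkn1a, which encodes the CDK inhibitor p21, was higher in mutants, with 1.72, 2.60 and 1.77 FPKM in controls and 5.88, 8.10 and 7.02 FPKM in mutants. The log2 change was 1.40 (SE 0.16, adjusted p = 0.0092). That call ended without control library 1, control library 3 or mutant library 2 (adjusted p up to 0.057).

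Several facts of the libraries stand beside these results. Sin3a had means of 18.9 and 18.0 FPKM (log2 change -0.07, adjusted p = 0.68), and since the floxed exons are not named and Shh-Cre does not act outside the epithelium of the lung, this does not check the genotype labels. The lung markers Nkx2-1 (9.26 and 4.08 FPKM) and Tbx4 (34.7 and 40.7 FPKM) were present in both groups. Summed FPKM of 25 lung epithelial markers was 744 to 812 in controls and 425 to 480 in mutants, with 11 of 24 tested called lower. Id2 was the largest part of that sum, at 168.4 to 222.1 FPKM in controls and 165.0 to 252.6 FPKM in mutants. Of the 24 tested changes, 21 were below 0 and 3, Id2 among them, above 0. Summed FPKM of 15 erythroid markers was 23040 to 45850 in controls and 14730 to 19820 in mutants, with 3 of 15 called lower. Most of this sum was Hbb-y, at 18740 to 34010 FPKM in controls and 11560 to 14280 FPKM in mutants. Of the 15 erythroid changes, 12 were below 0 and 3 above 0. The sum of 15 mesenchyme markers was higher in mutants (1374 to 1600 against 1948 to 2258), with 5 called higher and 2 lower. Col3a1 was the largest part of that sum, at 326.8 to 431.0 FPKM in controls and 583.9 to 643.6 FPKM in mutants. The sum of 16 macrophage and leukocyte markers was higher too (224 to 300.2 against 360.4 to 519), with 2 of 16 called higher. Endothelial, heart muscle, smooth muscle and neural lists had 1 of 15, 1 of 5, 0 of 7 and 0 of 10 genes called higher. Beside these lists, 1.63% of all tested genes were called lower and 1.71% higher. Every listed marker in the table exceeded the 0.01 FPKM floor in at least 1 library. The part of cell composition in the lower G2 and mitosis values was not tested. When globins and small RNAs were omitted and the remaining genes rescaled, the median of all genes moved to 0.106 and that of the 46 genes to -0.167. The difference between these medians was -0.272, against -0.279 with all genes kept.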

How the data were processed

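RNA-seq of whole E12.5 mouse lung was deposited by the authors as 1 table of FPKM values for 6 libraries, 3 controls and 3 mutants. Per the submitters' processing notes, TopHat, Bowtie2 and Cufflinks were used with mm10; the sources used here give no versions, settings or annotation. FPKM is relative to each library's total, so abundant transcripts such as globins move every other value. Depth is unknown in reads. Relative depth was taken from each library's most common ratio to control library 1 among genes at 0.3 FPKM or less in both. It was 0.5 to 1.24, with control library 1 set to 1.0. Of 24341 genes, 3 carried a failure mark and were left out.

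Values were tested as log2(FPKM + 1) with limma 3.58.1 (R 4.3.3, intensity trend, 2 groups) over the 12742 genes averaging 1 FPKM or more, with Benjamini-Hochberg adjustment and a threshold of 0.05. The fold changes understate those of low genes. The fit was tested on simulated data. Deposited starts count from 0 and are given here counted from 1. Promoters came from RefSeq, and GC content from GENCODE M21 transcripts, for 12277 tested genes.

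The members and gene lists were chosen with earlier results of these data known. Values in all libraries are given for the 10 members with the smallest p and for Mki67, Top2a, Ccnb1, Ccna2, Plk1, Aurka, Aurkb, Cdc20, Birc5 and Bub1; outside the members, for Sin3a, Cdkn1a, Pcna, Foxm1, Mybl2, E2f4 and up to 3 genes with the smallest p of 4 related lists, some by group means. Alternatives changed the pseudocount, filter, scaling, variance step, threshold, block, covariate and libraries; the correction for GC content and length was added after the data were seen.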

Additional observations from a re-analysis of the deposited data

How the results depend on the processing

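Of the 46 genes, 2 were called lower. That count was 1 with no filter on low genes and after quantile normalization, 0 when globins and small RNAs were omitted and with no intensity trend, 8 at an adjusted p under 0.1, and 15 after the GC content and length correction chosen after the data were seen. It ranged from 0 to 12 with 1 library left out: 0 without any 1 control library or mutant library 2, 12 without mutant library 1 and 2 without mutant library 3. The cause was not tested. The median log2 change of the 46, -0.288, was -0.167 with globins omitted and -0.200 after quantile normalization, and ran from -0.350 to -0.240 with 1 library left out, where 44 to 46 changes were below 0.

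Of all tested genes, 208 were called lower and 218 higher; these were 137 and 105 with no filter, 759 and 696 after the GC content correction, 562 and 576 at an adjusted p under 0.1, and 33 to 454 and 21 to 372 with 1 library left out. With a mean of at least 5 FPKM 138 were called lower, and with globins omitted 845 were called higher. Of the other G2 and mitosis genes, 1 was called lower, against 3 with the robust variance step, 17 after the GC content correction, 5 at an adjusted p under 0.1 and 0 to 12 with 1 library left out. Their median was -0.123 with globins omitted and -0.271 to -0.214 with 1 library left out.

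Signs turned for genes near 0. With globins omitted the log2 changes were 0.088 for Ccnb2, 0.067 for Plk1, 0.083 for Cdc20, 0.081 for Kif23, 0.035 for Kif2c, 0.067 for Ncapd2, 0.050 for Sin3a and 0.091 for Foxm1. After quantile normalization they were 0.073 for Ccnb2, 0.025 for Plk1 and 0.078 for Cdc20, and Ccnb2 was at 0.027 after the GC content correction with and without the block. With 1 library left out, Plk1 ran from -0.155 to 0.007, Cdc20 from -0.185 to 0.034, Kif23 from -0.119 to 0.029 and Foxm1 from -0.120 to 0.019.

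Whether the replicate numbers pair the libraries is not stated by the labels. Deviations of same-numbered libraries correlated at -0.0893, -0.0778 and -0.0263, and those of differently numbered libraries at -0.0341 to 0.0873. With 3 libraries per group these values cannot settle a pairing. With the replicate number as a block, 0 of the 46 were called, with 32 lower and 20 higher among all genes and 0 lower among the other G2 and mitosis genes. With the block and the GC content correction together, Cdk1 (adjusted p = 0.0345) and Kif15 (0.0410) were called by limma. The planned covariate for Ddx3y above the floor was not run, since traces lay in 2 more libraries, and Ddx3y above 1 FPKM was used. With that covariate, 2 of the 46 were called lower by limma, Cdk1 (adjusted p = 0.0446) and Kif15 (0.0452). Among all genes, 173 were then called lower and 168 higher. FPKM gives no counts, so no counting intervals could be set.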
